A study of Mus musculus with 24 samples.

Results

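The vascular endothelial growth factor (VEGF) genes *Vegfa*, *Vegfb*, *Vegfc* and *Pgf* were followed in mouse embryonic fibroblasts (MEFs) that lack the kinase LKB1, alone or together with its downstream coactivator CRTC2. These 4 genes are named growth factors of the family, taken by symbol from the 55471 genes of the count tables and all 4 were among the 17522 genes with enough counts to be tested. RNA-seq was made of 24 libraries in 8 groups of 3, from 3T3 MEFs, an immortalized fibroblast line. Wild-type MEFs, Lkb1-/- MEFs and 2 single-cell clones, named A1 and A2, of Lkb1-/-/Crtc2-/- MEFs were each left untreated or stimulated with the inflammatory cytokine IL-1β (0.1 ng/mL for 6 h per the study's methods). Lkb1-/- MEFs and both clones share the loss of *Stk11*, the gene of LKB1, and the clones were derived from Lkb1-/- cells by CRISPR-Cas9 with guides against the first exon of *Crtc2*. Each genotype is 1 line or 1 clone, so that an effect of the genotype and a property of the line cannot be told apart. Nothing in the labels says that the 3 libraries of a group came from separate derivations, so each p-value measures the spread between these libraries.

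VEGFs are secreted dimers that bind receptor tyrosine kinases, chiefly on endothelial cells. VEGF-A acts through VEGFR1 (*Flt1*) and VEGFR2 (*Kdr*) and drives the sprouting of blood vessels, and its gene is a classical target of the hypoxia-inducible factors (HIF). VEGF-B and placental growth factor (*Pgf*) bind VEGFR1 only, and VEGF-C, once cut by proteases, binds VEGFR3 (*Flt4*) and drives the growth of lymphatic vessels. Fibroblasts are a source of these factors in tissue and not their main responder. LKB1 activates the SIK kinases, which hold CRTC2, a coactivator of the transcription factor CREB, in the cytoplasm.

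Each library held between 38842901 and 48594394 counts on genes (median 42431965). In each of the 8 groups replicate 1 stood apart from the others, with a chi-square per gene of 37.7 to 106 against replicates 2 and 3, which differed from each other by 7.41 to 18.6. The members were therefore also fitted on replicates 2 and 3 only, a choice made after the data were seen, and 61 of 68 values then kept their direction and their side of the threshold. The other 7 are given beside the results. The labels were checked on the targeted genes first. *Stk11* (GRCm38 chromosome 10, 80115803 to 80130682) was counted at 86.0 ± 1.68 CPM (the count scaled to library size after TMM, SD, n = 3) in untreated MEFs of the wild type and at 17.3 ± 1.24, 21.4 ± 0.617 and 18.1 ± 0.758 CPM in untreated Lkb1-/- MEFs, clone A1 and clone A2. *Crtc2* (chromosome 3, 90254163 to 90264125) was at 58.4 ± 2.44 CPM in untreated wild-type MEFs, 81.1 ± 1.80 CPM in untreated Lkb1-/- MEFs and 42.9 ± 2.11 and 49.8 ± 0.864 CPM in the untreated clones, so that reads on the edited gene remained in both. The clones were 1.36-fold (A1) and 1.17-fold (A2) under the wild type for *Crtc2*, from which Lkb1-/- MEFs differed 1.39-fold in the other direction. Summed over 10 fibroblast markers, libraries held between 5716 and 9935 CPM, with 7 or 8 markers above 1 CPM in each group. Of these markers, *Thy1* had at most 3 and *Lum* at most 10 counts in a library. Across libraries *Dcn* ran from 15 to 26849 counts and *Pdgfra* from 166 to 24704. The 8 endothelial markers summed to between 0.181 and 0.859 CPM with none above 1 CPM in any group, the 6 leukocyte markers to between 2.49 and 8.96 CPM, and the 5 epithelial markers to between 0.110 and 2.93 CPM. In bulk RNA, fewer cells that express a gene and less RNA of it per cell cannot be told apart.

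*Vegfa* lies on chromosome 17 from 46016993 to 46032369 on the minus strand, *Vegfb* on chromosome 19 from 6982473 to 6987651 on the minus strand, *Vegfc* on chromosome 8 from 54077606 to 54187096 on the plus strand, and *Pgf* on chromosome 12 from 85166635 to 85177790 on the minus strand, all on GRCm38. Each is protein-coding, the counts are of read pairs over its exons, and between 99.05% and 99.7% of each member's stranded counts fell on its own strand. The 250 bases before the start of *Vegfa* and of *Vegfc*, the 2 members whose counts rose with IL-1β in Lkb1-/- MEFs, are printed from RefSeq's promoters on GRCm38.p6, 5′ to 3′ on the gene's strand, with the GC box GGGCGG (either strand), a common element of promoters without a TATA box, in capitals.
Vegfa, chr17:46032378-46032627 (minus strand): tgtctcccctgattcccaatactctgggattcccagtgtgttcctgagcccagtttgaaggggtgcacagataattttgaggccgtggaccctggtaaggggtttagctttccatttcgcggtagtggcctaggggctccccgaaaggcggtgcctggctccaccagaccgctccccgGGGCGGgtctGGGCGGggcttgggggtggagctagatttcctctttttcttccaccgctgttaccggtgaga
Vegfc, chr8:54077282-54077531 (plus strand): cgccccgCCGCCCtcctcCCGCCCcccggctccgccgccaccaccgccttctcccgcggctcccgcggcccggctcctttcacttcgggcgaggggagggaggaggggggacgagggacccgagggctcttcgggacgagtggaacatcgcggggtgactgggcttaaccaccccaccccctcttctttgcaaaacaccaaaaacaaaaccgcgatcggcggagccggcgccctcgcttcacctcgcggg

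Both windows held 2 matches to the GC box. The *Vegfb* window held 4, the windows at the 2 starts of *Pgf* held 2 and 0, and 32.7% of all 32851 promoters of this length held at least 1. No match to the CRE half-site TGACG (in 17.8% of promoters), which CREB binds, to the HRE core ACGTG (16.6%), which HIF binds, or to the AP-1 site TGANTCA (6.75%) was found in the printed windows, in that of *Vegfb* or in both of *Pgf*, searched on both strands. A second, internal start of *Vegfa* had 1 CRE half-site and 1 HRE core in its 250 bases, 209 and 211 bases before the start, and these 2 matches overlap. A match is a run of letters and not a measured site, and the windows say nothing of elements farther away.

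**Figure D1:**
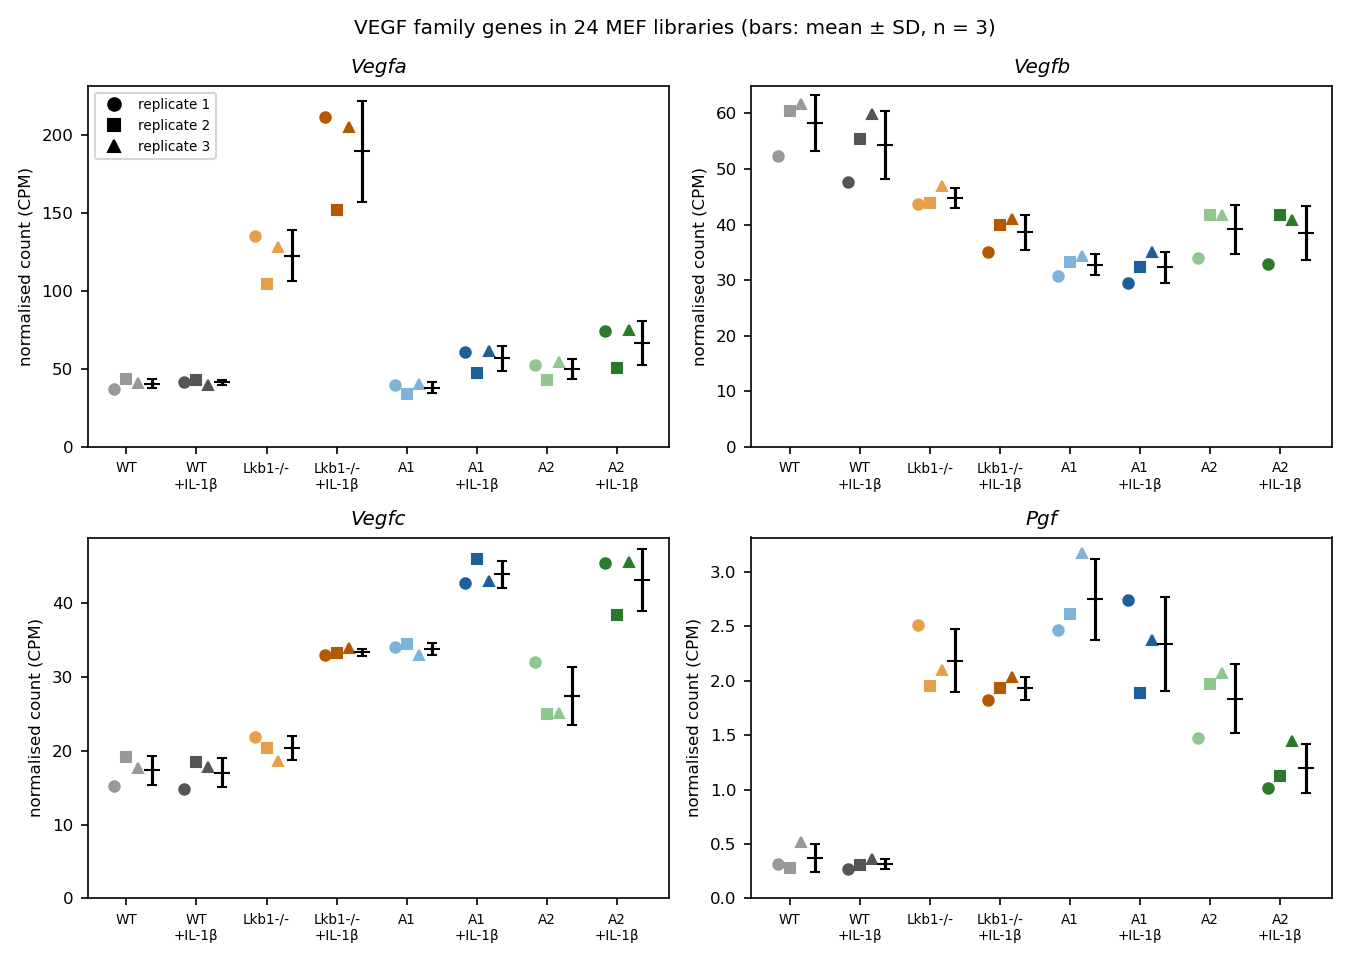
CPM of each member in each of the 24 libraries, by group, with circles, squares and triangles for replicates 1, 2 and 3 and a black bar at the group mean ± SD. *Vegfa* is highest in Lkb1-/- MEFs, from 104 CPM untreated up to 212 CPM with IL-1β, *Vegfb* is highest in wild-type MEFs, *Vegfc* is highest in the IL-1β-stimulated clones, and *Pgf* stays at or under 0.522 CPM in wild-type MEFs.

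*Vegfa* was the member with the widest range in CPM. It was counted at 37.3, 43.5 and 41.1 CPM in the 3 untreated wild-type libraries, against 135, 104 and 128 CPM in the 3 untreated Lkb1-/- libraries. It was at 39.7, 34.1 and 40.3 CPM in untreated clone A1 and at 52.6, 42.7 and 54.6 CPM in untreated clone A2. The Lkb1-/- libraries were thus higher than every untreated library of the other genotypes, and the untreated clones lay close to wild-type MEFs. With IL-1β, *Vegfa* was at 41.6, 42.9 and 39.8 CPM in wild-type MEFs, against 212, 152 and 205 CPM in Lkb1-/- MEFs. In the stimulated clones it was at 61.1, 47.7 and 61.8 CPM in A1 and at 74.6, 50.7 and 74.9 CPM in A2. Replicate 2 was the lowest library in 6 of 8 groups, which were all groups of Lkb1-/- MEFs and of the clones.

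In order of their means, untreated clone A1 (38.0 ± 3.46 CPM, SD, n = 3), untreated wild-type (40.6 ± 3.14), stimulated wild-type (41.5 ± 1.57), untreated clone A2 (49.99 ± 6.38), stimulated clone A1 (56.8 ± 7.94) and stimulated clone A2 (66.7 ± 13.9) each overlapped the next for *Vegfa*. Untreated Lkb1-/- (123 ± 16.3) and stimulated Lkb1-/- MEFs (190 ± 32.5) each stood above every library of the group before them.

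*Vegfb* was counted at 52.4, 60.5 and 61.7 CPM in untreated wild-type MEFs and 43.7, 43.8 and 46.9 CPM in untreated Lkb1-/- MEFs, with no overlap. The untreated clones had 30.7, 33.2 and 34.4 CPM (A1) and 34.1, 41.7 and 41.7 CPM (A2), all under the Lkb1-/- libraries. With IL-1β the counts were 47.7, 55.4 and 59.9 CPM in the wild type, 35.1, 39.9 and 41.0 CPM in Lkb1-/- MEFs, 29.5, 32.3 and 35.2 CPM in A1 and 33.0, 41.7 and 40.9 CPM in A2. From the lowest mean, the groups ran from stimulated A1 (32.3 ± 2.83 CPM), untreated A1 (32.8 ± 1.88), stimulated A2 (38.5 ± 4.81), stimulated Lkb1-/- (38.6 ± 3.14) and untreated A2 (39.1 ± 4.39), which overlapped their neighbours, to untreated Lkb1-/- (44.8 ± 1.79), stimulated wild-type (54.3 ± 6.19) and untreated wild-type MEFs (58.2 ± 5.05), of which the last 2 overlapped. Replicate 1 was the lowest *Vegfb* library in 8 of 8 groups. The share of read pairs in lines that name no gene was highest in replicate 1 in each group too, at 29.9% to 34.4% against 26.7% to 30.0% in replicates 2 and 3, and its part in the *Vegfb* counts was not tested.

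*Vegfc* was counted at 15.3, 19.1 and 17.7 CPM in untreated wild-type MEFs, at 21.9, 20.4 and 18.7 CPM in untreated Lkb1-/- MEFs, at 34.1, 34.5 and 32.9 CPM in untreated A1 and at 32.0, 25.1 and 25.2 CPM in untreated A2. Both clones lay above Lkb1-/- MEFs, the opposite order to *Vegfa*. With IL-1β it was at 14.8, 18.6 and 17.8 CPM in the wild type, 33.0, 33.3 and 33.9 CPM in Lkb1-/- MEFs, 42.8, 46.0 and 43.1 CPM in A1 and 45.5, 38.4 and 45.7 CPM in A2. Stimulated wild-type (17.1 ± 2.005 CPM), untreated wild-type (17.4 ± 1.96) and untreated Lkb1-/- MEFs (20.3 ± 1.62) overlapped at the low end of the order. Untreated A2 (27.4 ± 3.97) and stimulated Lkb1-/- MEFs (33.4 ± 0.463) each stood apart from the group before them, untreated A1 (33.9 ± 0.814) overlapped the latter, and stimulated A2 (43.2 ± 4.14) and stimulated A1 (44.0 ± 1.81), which overlapped each other, were the highest.

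*Pgf* had the fewest reads, between 11 and 138 counts per library. It was at 0.313, 0.276 and 0.522 CPM in untreated and 0.272, 0.304 and 0.362 CPM in stimulated wild-type MEFs. In Lkb1-/- MEFs it was at 2.51, 1.95 and 2.10 CPM untreated and 1.82, 1.93 and 2.04 CPM with IL-1β. Clone A1 had 2.46, 2.62 and 3.17 CPM untreated and 2.75, 1.89 and 2.37 CPM with IL-1β, and clone A2 had 1.47, 1.97 and 2.07 CPM untreated and 1.02, 1.13 and 1.44 CPM with IL-1β. Every library that lacks LKB1 was above every wild-type library. The wild-type means were 0.312 ± 0.0459 CPM with IL-1β and 0.370 ± 0.132 CPM without, stimulated A2 (1.20 ± 0.223) and untreated A2 (1.84 ± 0.320) each stood apart from the group before them, and stimulated and untreated Lkb1-/- MEFs (1.93 ± 0.108 and 2.19 ± 0.293) and stimulated and untreated A1 (2.34 ± 0.431 and 2.75 ± 0.372) followed, each overlapping its neighbour.

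To set the members against each other, CPM were divided by the exon length of each gene in kilobases. *Vegfd*, another VEGF ligand, is not a member and was left out of these levels. *Vegfb* had the highest level per kilobase in untreated wild-type MEFs, at 68.5% of the sum of the 4 members, against 17.9% for *Vegfa*, 13.4% for *Vegfc* and 0.24% for *Pgf*. In untreated Lkb1-/- MEFs *Vegfa* (28.6 ± 3.81 CPM per kilobase) and *Vegfb* (27.9 ± 1.11) were level within their spread, with 43.5% and 42.7% of the sum, and with IL-1β *Vegfa* reached 53.3 ± 5.22% against 29.3 ± 3.84% for *Vegfb*. In the stimulated clones the sum was spread over *Vegfb* (38.6% in A1 and 41.8% in A2), *Vegfc* (34.5% and 30.6%) and *Vegfa* (25.4% and 26.9%). The sum itself was 53.0 ± 4.56 CPM per kilobase in untreated wild-type, 65.6 ± 4.34 in untreated and 82.7 ± 7.04 in stimulated Lkb1-/- MEFs, and 52.2 ± 2.23 and 57.6 ± 4.17 in the stimulated clones A1 and A2. These levels take all exons of a gene as its length. With the length of the longest transcript instead, the levels in untreated Lkb1-/- MEFs were 35.5 CPM per kilobase for *Vegfa*, 35.0 for *Vegfb* and 1.05 for *Pgf* (0.753 with all exons), while *Vegfc*, whose 2 lengths are equal, stayed at 8.31. The share of *Vegfc* in stimulated A1 was then 29.6%.

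**Figure D2:**
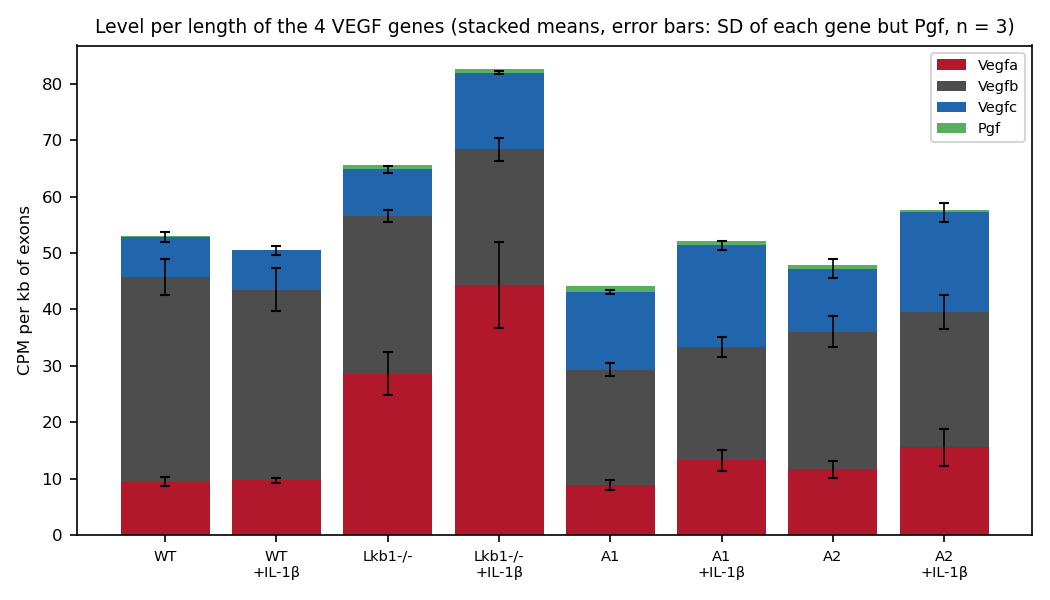
Level of each member per kilobase of exon (CPM per kilobase, mean of 3 libraries), stacked in each group, with error bars of 1 SD for *Vegfa*, *Vegfb* and *Vegfc*. Among the members, which do not include *Vegfd*, *Vegfb* leads in wild-type MEFs and in all 4 groups of the clones. *Vegfa* and *Vegfb* are level in untreated Lkb1-/- MEFs, and *Vegfa* leads at 44.3 CPM per kilobase in stimulated Lkb1-/- MEFs.

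The first comparison asked how the loss of LKB1 alone changes the family. *Vegfa* and *Pgf* were higher and *Vegfb* was lower in untreated Lkb1-/- than in untreated wild-type MEFs, so that 3 of 4 members were called at a false discovery rate (FDR, from edgeR's quasi-likelihood test with Benjamini-Hochberg adjustment over all tested genes) under 0.05. In this comparison 55.9% of all tested genes were called (30.1% higher and 25.8% lower), against which a count of 3 of 4 is no result about the family. *Vegfa* was 3.02-fold higher, or 1.59 on the log2 scale (SE 0.152, edgeR FDR = 1.1e-08). *Pgf* was 5.93-fold higher (log2 fold change 2.57, SE 0.238, edgeR FDR = 7.5e-09), and *Vegfb* was 1.30-fold lower (log2 fold change -0.38, SE 0.105, edgeR FDR = 0.0040). *Vegfc* had a log2 fold change of 0.23 (95% interval 0.011 to 0.45, edgeR FDR = 0.070) and was not called, although without replicate 2 of the wild type it was (0.30, FDR = 0.034). Its value was 0.085 on replicates 2 and 3 only (FDR = 0.41).

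With IL-1β all 4 members were called in Lkb1-/- against wild-type MEFs, where 57.4% of all tested genes were. The fold change of *Vegfa* was 4.58 (log2 fold change 2.19, SE 0.154, edgeR FDR = 9.3e-11), that of *Pgf* was 6.15 (2.62, SE 0.245, FDR = 8.3e-09) and that of *Vegfc* was 1.96 (0.97, SE 0.105, FDR = 7.3e-08). *Vegfb* was 1.41-fold lower (-0.49, SE 0.105, FDR = 4.0e-04). In both treatments the ranges of *Vegfa*, *Vegfb* and *Pgf* did not overlap between the 2 genotypes.

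**Figure D3:**
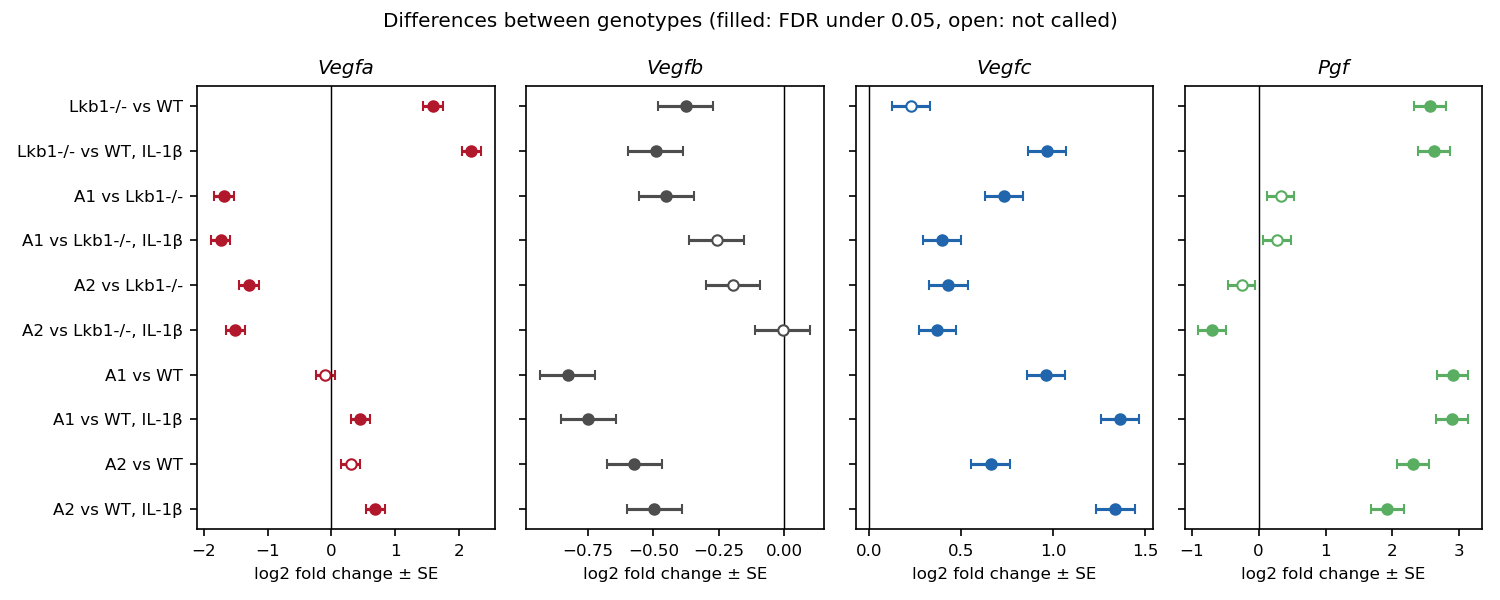
Log2 fold changes of the members between genotypes, with bars of 1 SE, untreated and with IL-1β; filled points passed an FDR of 0.05, open points did not, and the panels have different scales on the x axis. *Vegfa* is up by 1.59 and 2.19 in Lkb1-/- against wild-type MEFs and down by 1.29 to 1.74 in the clones against Lkb1-/- MEFs, while *Vegfc* is higher in the clones than in Lkb1-/- MEFs and *Pgf* is not called in clone A1.

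The clones were then compared with the Lkb1-/- MEFs they came from, which asks what changes when CRTC2 is lost as well. These comparisons share the Lkb1-/- libraries with the comparison above, so that the values are given side by side and no reversal is counted. *Vegfa* was lower in both clones and both treatments. Untreated, it was 3.22-fold lower in A1 (log2 fold change -1.69, SE 0.152, edgeR FDR = 4.4e-08) and 2.45-fold lower in A2 (-1.29, SE 0.150, FDR = 1.4e-06), and with IL-1β it was 3.34-fold lower in A1 (-1.74, SE 0.152, FDR = 2.4e-08) and 2.85-fold lower in A2 (-1.51, SE 0.150, FDR = 1.9e-07). *Vegfc* was higher in both clones, by 1.66-fold in A1 and 1.35-fold in A2 untreated (log2 fold changes 0.74 and 0.43, edgeR FDR = 1.1e-05 and 0.0028) and by 1.32-fold and 1.29-fold with IL-1β (0.40 and 0.37, FDR = 0.0042 and 0.0076). The last of these was not called without replicate 3 of stimulated A2 (0.33, FDR = 0.054).

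*Vegfb* and *Pgf* were called against Lkb1-/- MEFs in 1 clone and 1 treatment each. *Vegfb* was 1.37-fold lower in untreated A1 (log2 fold change -0.45, edgeR FDR = 0.0020). Its log2 fold change was -0.20 in untreated A2 (95% interval -0.41 to 0.023, FDR = 0.17; -0.095 without replicate 1 of untreated A2), -0.26 in stimulated A1 (-0.48 to -0.038, FDR = 0.061) and -0.0053 in stimulated A2 (-0.22 to 0.21, FDR = 0.98). When the replicate number entered as a block, *Vegfb* was called in untreated A2 (-0.20, FDR = 0.0024) and in stimulated A1 (-0.26, FDR = 2.4e-04), and without the block the latter was also called when replicate 1 of stimulated Lkb1-/- MEFs (-0.32, FDR = 0.035) or replicate 3 of stimulated A1 (-0.30, FDR = 0.047) was left out. Replicates 2 and 3 alone gave -0.26 in stimulated A1 (FDR = 0.0026), which was called, and 0.031 in stimulated A2 (FDR = 0.72), a change of sign near 0. *Pgf* was 1.62-fold lower in stimulated A2 (-0.69, SE 0.210, FDR = 0.014), but not when replicate 1 (-0.57, FDR = 0.067) or 2 (-0.63, FDR = 0.058) of stimulated A2 was left out. *Pgf* also lost this call without the filter on low counts (-0.71, FDR = 0.059). In stimulated A1 its log2 fold change was 0.27 (FDR = 0.33), and in the untreated clones it was 0.33 in A1 (95% interval -0.087 to 0.75) and -0.25 in A2 (-0.68 to 0.17). Replicates 2 and 3 alone gave 0.52 and -0.0038 for these, and the A2 value was -0.11 without replicate 1 of either group. Of all tested genes, 35.3% were called in untreated A1 against 3 of 4 members, 32.3% in untreated A2 against 2, 36.7% in stimulated A1 against 2, and 32.8% in stimulated A2 against 3.

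Against wild-type MEFs, whose libraries are again shared with the first comparison, the members of the clones fell in different places. *Vegfa* was not called in untreated A1 (log2 fold change -0.095, 95% interval -0.41 to 0.22, edgeR FDR = 0.62, and -0.022 without replicate 2 of untreated A1 or -0.0085 with upper quartile scaling) or untreated A2 (0.30, -0.012 to 0.61, FDR = 0.090). With IL-1β it was 1.37-fold higher in A1 (0.46, FDR = 0.013) and 1.61-fold higher in A2 (0.69, FDR = 4.6e-04). The call in A1 was lost without replicate 3 of stimulated wild-type MEFs (0.41, FDR = 0.052) and without replicate 1 (0.40, FDR = 0.051) or 3 (0.38, FDR = 0.066) of stimulated A1, and on replicates 2 and 3 only (0.40, FDR = 0.092). *Pgf* stayed higher than in wild-type MEFs, by 7.46-fold in A1 and 4.97-fold in A2 untreated and by 7.43-fold and 3.80-fold with IL-1β. *Vegfc* was higher by 1.95-fold and 1.58-fold untreated and by 2.58-fold and 2.53-fold with IL-1β. *Vegfb* was lower, by log2 fold changes of -0.83 (A1) and -0.57 (A2) untreated and -0.75 and -0.50 with IL-1β. For *Pgf*, *Vegfc* and *Vegfb* every one of these values was called. The called share of all tested genes was 55.4% in untreated A1, 60.6% in untreated A2, 56.9% in stimulated A1 and 60.8% in stimulated A2, with 3, 3, 4 and 4 members called.

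IL-1β was then set against no treatment within each genotype. In wild-type MEFs no member was called, where 2.26% of all tested genes were. The log2 fold changes were 0.029 for *Vegfa* (95% interval -0.28 to 0.34), -0.025 for *Vegfc* (-0.24 to 0.19), -0.10 for *Vegfb* (-0.32 to 0.12, edgeR FDR = 0.83) and -0.23 for *Pgf* (-0.82 to 0.36, FDR = 0.89). The *Vegfa* value was -0.032 on replicates 2 and 3 only (FDR = 0.98). In Lkb1-/- MEFs, where 4.74% of genes were called, *Vegfc* rose 1.64-fold (log2 fold change 0.72, SE 0.104, edgeR FDR = 1.2e-04) and *Vegfa* rose 1.55-fold (0.63, SE 0.147, FDR = 0.012). In same-numbered libraries *Vegfc* rose by 0.59, 0.71 and 0.86 and *Vegfa* by 0.64, 0.55 and 0.68 on the log2 scale. The *Vegfa* call was lost without replicate 2 of untreated (0.53, FDR = 0.097) or replicate 1 (0.55, FDR = 0.072) or 3 (0.59, FDR = 0.054) of stimulated Lkb1-/- MEFs, and it passed at 0.66 or more in each other fit that left out 1 library of these groups. On replicates 2 and 3 only it was 0.62 (FDR = 0.057) and not called. *Vegfb* had a log2 fold change of -0.21 (95% interval -0.43 to 0.0049, FDR = 0.36), and -0.22 with a block for the replicate number within each genotype (FDR = 5.7e-04), and *Pgf* had one of -0.18 (FDR = 0.78).

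In clone A1, where 1.99% of genes were called, *Vegfa* was 1.49-fold higher with IL-1β (log2 fold change 0.58, SE 0.150, edgeR FDR = 0.049), a call at the threshold that was lost without any of the 3 untreated libraries (0.51 to 0.62, FDR = 0.10 to 0.23) or without replicate 1 or 3 of stimulated A1 (0.53, FDR = 0.18 for each), and on replicates 2 and 3 only (0.56, FDR = 0.14). *Vegfc* had a log2 fold change of 0.38 (95% interval 0.16 to 0.59, FDR = 0.063), which was called at 0.38 with the block within each genotype (FDR = 2.9e-05) and at 0.40 on replicates 2 and 3 only (FDR = 0.0098). In clone A2, where 5.68% of genes were called, *Vegfc* rose 1.57-fold (0.65, SE 0.103, FDR = 2.7e-04). *Vegfa* had a log2 fold change of 0.42 in A2 (95% interval 0.105 to 0.73, FDR = 0.12), which was called at 0.41 with the block (FDR = 1.6e-06) and at 0.58 without replicate 2 of stimulated A2 (FDR = 0.020). *Pgf* was at -0.62 in A2 (-1.06 to -0.18, FDR = 0.096), called at -0.62 with the block (FDR = 0.015) and at -0.74 without replicate 1 of untreated A2 (FDR = 0.037). The same-number log2 ratios of *Vegfa* were 0.62, 0.49 and 0.61 in A1 and 0.50, 0.25 and 0.45 in A2, and those of *Vegfc* were 0.33, 0.42 and 0.39 in A1 and 0.51, 0.62 and 0.86 in A2. The ratio was thus above 0 for every number and both genes in each genotype that lacks LKB1, whereas in wild-type MEFs the ratios were 0.16, -0.020 and -0.046 for *Vegfa* and -0.045, -0.044 and 0.011 for *Vegfc*. The responses of the clones were not tested against that of wild-type MEFs. The share of all genes with such ratios was not counted.

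**Figure D4:**
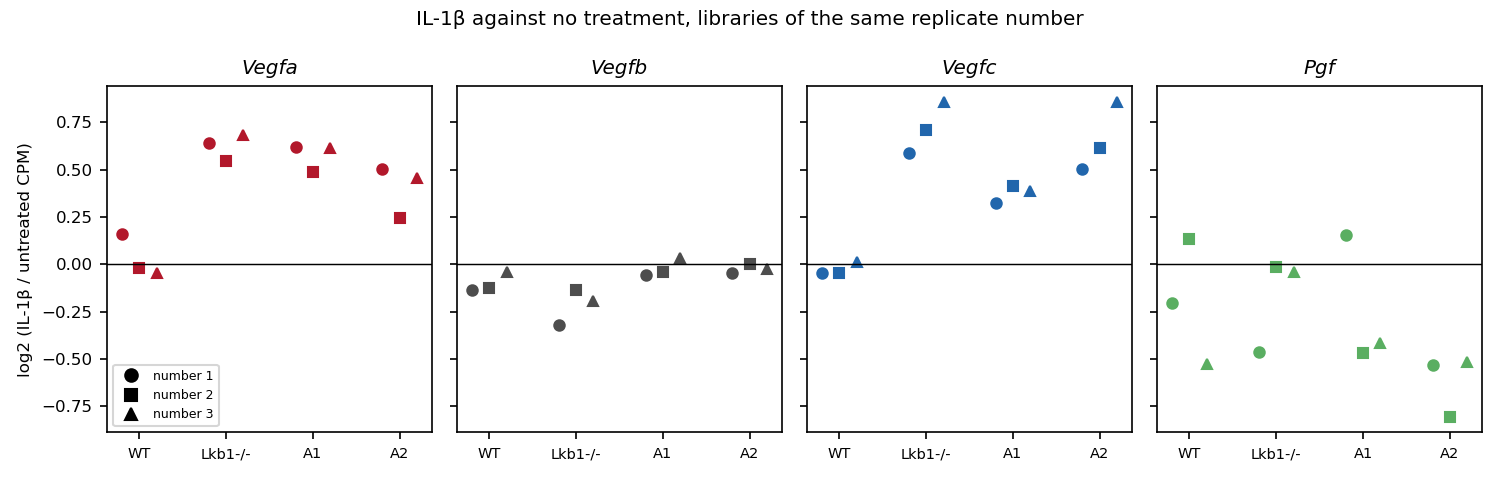
Log2 ratio of CPM with IL-1β to CPM without it for each member, genotype and replicate number, with 0 as the line of no change. *Vegfa* and *Vegfc* lie above 0 for all 3 numbers in Lkb1-/- MEFs, A1 and A2, at 0.25 to 0.68 and 0.33 to 0.86, and within 0.16 of 0 in wild-type MEFs.

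Whether the responses differ between genotypes was tested as a difference of log2 fold changes. For *Vegfc* the response of Lkb1-/- MEFs exceeded that of wild-type MEFs by 0.74 (SE 0.148, a ratio of 1.67, edgeR FDR = 0.031), in a test where 0.245% of genes, 43 in all, were called. Among the 12 fits without 1 of the libraries compared, 7 lost this call. The value was then 0.67, 0.75 and 0.65 without replicates 2 and 3 of untreated and replicate 1 of stimulated wild-type MEFs (FDR = 0.11, 0.081 and 0.094), 0.74 and 0.70 without replicates 2 and 3 of untreated Lkb1-/- MEFs (FDR = 0.088 and 0.12), and 0.74 and 0.77 without replicates 2 and 3 of stimulated Lkb1-/- MEFs (FDR = 0.085 and 0.080). The call held on replicates 2 and 3 only (0.80, FDR = 0.0048). For *Vegfa* the same difference was 0.60 (95% interval 0.16 to 1.04, FDR = 0.57) and was called only in other fits, at 0.59 with the block within each genotype (FDR = 6.5e-06). For *Vegfb* and *Pgf* it was -0.11 and 0.052.

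Between each clone and Lkb1-/- MEFs no member's response was called different. For *Vegfa* the difference was -0.051 in A1 (95% interval -0.49 to 0.39) and -0.21 in A2 (-0.65 to 0.22), and these intervals leave room for a response either larger or smaller than that of Lkb1-/- MEFs. The A2 value was -0.051 without replicate 2 of stimulated A2. For *Vegfc* it was -0.34 in A1 (edgeR FDR = 1, unadjusted p = 0.030), called at -0.34 with the block within each genotype (FDR = 0.029), and -0.061 in A2 (-0.36 to 0.24). For *Vegfb* it was 0.19 in each clone, and for *Pgf* it was -0.059 and -0.44. Over all genes 5 (0.0285%) were called for A1 and 0 (0.0%) for A2 by edgeR, while DESeq2 called 12 in each. Of the 17522 tested genes, 433 in A1 and 388 in A2 had an unadjusted edgeR p under 0.05. That is less than the share of 0.05 that would pass if no gene differed, so the lack of a call does not show equal responses. The block within each genotype called 267 and 183.

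The receptors of the family were followed next. *Flt1*, which encodes VEGFR1, the receptor of VEGF-A, VEGF-B and PlGF, was counted between 111 and 134 CPM in untreated wild-type and between 6.95 and 8.68 CPM in untreated Lkb1-/- MEFs. It was thus 15.4-fold lower without LKB1 (log2 fold change -3.95, SE 0.164, edgeR FDR = 1.8e-14). The clones lay between the 2, at 16.0 to 24.1 CPM in A1 and 15.8 to 19.3 CPM in A2 untreated, and with IL-1β *Flt1* was 2.05-fold (FDR = 1.4e-05) and 2.08-fold (FDR = 1.5e-05) higher in A1 and A2 than in Lkb1-/- MEFs. IL-1β raised *Flt1* in Lkb1-/- MEFs (log2 fold change 0.90, FDR = 8.4e-04) and in A2 (0.81, FDR = 0.0013), and its log2 fold changes were 0.16 in wild-type MEFs (FDR = 0.77) and 0.56 in A1 (FDR = 0.053).

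*Kdr*, the gene of VEGFR2, which carries most of the endothelial signal of VEGF-A, was at 0.390 ± 0.0742 CPM in untreated wild-type MEFs, against 2.60 ± 0.190 CPM in untreated Lkb1-/- MEFs, 6.64-fold higher (log2 fold change 2.73, SE 0.275, edgeR FDR = 2.6e-08), and was called in neither clone against Lkb1-/- MEFs. *Flt4*, the gene of VEGFR3, had at most 23 counts in a library, at 0.0720 ± 0.0625 CPM in untreated wild-type and 0.435 ± 0.123 CPM in untreated Lkb1-/- MEFs (edgeR FDR = 0.0016), and 0 counts in all 3 stimulated A2 libraries. The endothelial markers summed to 0.223 to 0.365 CPM in untreated wild-type and 0.500 to 0.742 CPM in untreated Lkb1-/- MEFs, with 5 and 4 of 8 at 0 in all 3 libraries, and their part in the *Kdr* and *Flt4* counts was not tested.

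Of the coreceptors, *Nrp1* (neuropilin 1) was 1.82-fold higher in untreated Lkb1-/- MEFs (203 ± 9.33 against 112 ± 6.65 CPM, log2 fold change 0.86, edgeR FDR = 1.3e-07). With IL-1β it was lower than in Lkb1-/- MEFs in A1 (-0.61, FDR = 4.1e-05) and in A2 (-1.39, FDR = 2.1e-09). IL-1β lowered *Nrp1* in each of the 4 genotypes, by log2 fold changes of -0.42 in wild-type (FDR = 0.019), -0.61 in Lkb1-/- MEFs (FDR = 2.9e-04), -0.56 in A1 (FDR = 0.0016) and -0.73 in A2 (FDR = 4.1e-05). *Nrp2* (neuropilin 2), a coreceptor of VEGF-C, had a log2 fold change of 0.037 between untreated Lkb1-/- and wild-type MEFs (FDR = 0.85), and of -0.034 with unstranded counts. *Vegfd*, the other VEGFR3 ligand, was at 59.6 ± 2.49 CPM in untreated wild-type and 49.5 ± 5.28 CPM in untreated Lkb1-/- MEFs (-0.27, FDR = 0.075) and was called with unstranded counts (-0.34, FDR = 0.033), with the replicate block (-0.27, FDR = 0.0041) and without replicate 2 of untreated Lkb1-/- MEFs (-0.36, FDR = 0.036). With IL-1β it was 1.70-fold lower (-0.76, FDR = 2.4e-05).

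**Figure D5:**
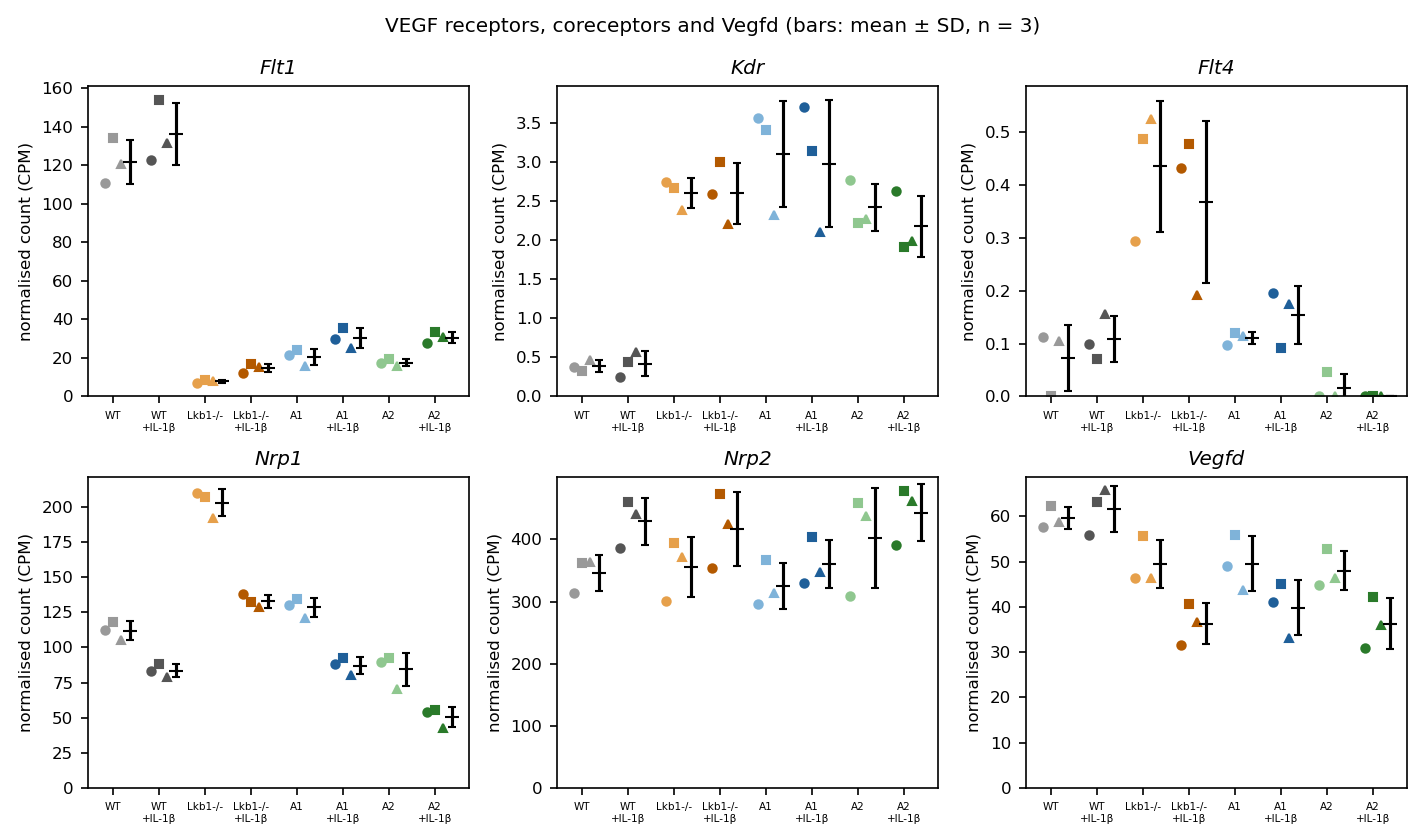
CPM of the VEGF receptors *Flt1*, *Kdr* and *Flt4*, the coreceptors *Nrp1* and *Nrp2* and the ligand *Vegfd* in each of the 24 libraries, by group, with a black bar at the group mean ± SD. *Flt1* falls from a mean of 122 CPM in untreated wild-type to 7.88 CPM in untreated Lkb1-/- MEFs and lies between the 2 in the clones, *Kdr* is low throughout and higher in every genotype without LKB1, and *Nrp1* is lower with IL-1β in each genotype.

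Other genes of the pathway were counted by lists, with the receptors and *Vegfd* included, and 52 of 55 listed genes could be tested. Between untreated Lkb1-/- and wild-type MEFs 27 were called higher and 10 lower, in the comparison in which 30.1% and 25.8% of all tested genes were. Of the 5 receptors and coreceptors 3 were higher and 1 was lower, with a median log2 fold change of 0.86 against 0.041 over all tested genes. Among 4 tested genes of the processing of VEGF-C, which is cut by a complex of ADAMTS3 and CCBE1 and by furin, 2 were higher and 1 lower, with a median of 2.18 (1.67 with *Adamts3* at its bound). *Ccbe1*, the cofactor of this cleavage, rose 19.9-fold from 5.01 ± 1.66 to 100 ± 21.5 CPM (log2 fold change 4.32, edgeR FDR = 7.1e-13). *Adamts3*, the protease, had 0 counts in wild-type MEFs. In Lkb1-/- MEFs it was at 0.703 ± 0.122 CPM, which is at least 9.84-fold higher at a floor of 3 counts in each library. *Furin* was lower (-1.31, FDR = 1.0e-08).

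The HIF factors and their oxygen sensors had 4 genes higher and 1 lower of 8, with a median log2 fold change of 0.32. *Hif1a*, the oxygen-regulated subunit of HIF-1, was at 409 ± 6.80 and 720 ± 97.9 CPM (log2 fold change 0.81, edgeR FDR = 0.0012), and *Epas1*, the HIF-2 subunit, was lower (-2.17, FDR = 6.0e-07). *Vhl*, which marks HIF for decay, was higher (0.42, FDR = 0.0048), and *Arnt*, the shared partner, was higher (0.40, FDR = 0.010) but not without replicate 3 of untreated Lkb1-/- MEFs (0.30, FDR = 0.058). Of 11 tested HIF target genes 7 were higher and 1 lower, with a median of 0.60, but 4 were higher without replicate 1 of the wild type or replicate 2 of Lkb1-/- MEFs. *Pdk1*, which inhibits pyruvate dehydrogenase, was 4.77-fold higher (2.25, FDR = 2.6e-05), and *Ankrd37* was 2.80-fold higher (1.49, FDR = 1.3e-04). The glucose transporter *Slc2a1* was lower (-0.62, FDR = 8.8e-04). *Adm*, the peptide adrenomedullin, was at 0.164 ± 0.178 and 0.562 ± 0.370 CPM with overlapping ranges, and its call (FDR = 0.034) was lost without any of replicates 1 and 3 of the wild type and 1 and 2 of Lkb1-/- MEFs (FDR = 0.060 to 0.22), and on replicates 2 and 3 only (FDR = 0.10).

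Of 9 tested other angiogenic factors 5 were called higher and 1 lower, with a median log2 fold change of 2.02. *Hgf*, a growth factor for endothelial and epithelial cells, was at 0.0461 ± 0.0374 CPM in untreated wild-type, with 1 to 4 counts in a library, and at 27.1 ± 5.80 CPM in untreated Lkb1-/- MEFs. *Fgf2* was at 0.115 ± 0.0770 and 3.95 ± 0.509 CPM (edgeR FDR = 1.0e-10), and *Ptn*, with 0 counts in wild-type MEFs, had a mean of 1.56 ± 0.412 CPM in the Lkb1-/- libraries, at least 21.8-fold higher. *Apln*, the ligand of the apelin receptor, was lower (log2 fold change -1.99, FDR = 8.8e-12). Among 9 angiogenesis inhibitors 5 were higher and 1 lower, with a median of 0.91. *Timp3*, a metalloproteinase inhibitor that also binds VEGFR2, was 9.95-fold higher (3.31, FDR = 9.3e-13), *Vash1* was at 0.0236 ± 0.0224 and 2.41 ± 0.268 CPM, and *Thbs2* was at 0.0377 ± 0.0343 and 0.279 ± 0.0952 CPM. *Thbs1* was lower (-0.75, FDR = 0.011) but not without replicate 2 of the wild type (-0.62, FDR = 0.057).

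The 5 factors that bind *Vegfa* mRNA had 1 gene higher and 4 lower, with a median of -0.20 on the log2 scale. The 4 became 2 without replicate 1 of the wild type and 1 with upper quartile scaling. *Zfp36*, which marks AU-rich mRNAs for decay, was lower (-1.21, edgeR FDR = 3.6e-11), and its relative *Zfp36l1* was higher (1.13, FDR = 4.2e-08). *Hnrnpl* was lower by a small amount (-0.20, FDR = 0.0057) that upper quartile scaling took from the calls (-0.12, FDR = 0.17). The call of *Zfp36l2* (-0.23, FDR = 0.043) was lost with the same scaling (-0.15, FDR = 0.061) and without replicate 1 (-0.20, FDR = 0.13) or 2 (-0.24, FDR = 0.070) of the wild type or replicate 2 of Lkb1-/- MEFs (-0.21, FDR = 0.12).

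With IL-1β, 13 of the 52 listed genes were called higher and 14 lower in A1 than in Lkb1-/- MEFs, where 19.4% and 17.3% of all tested genes were, and 13 higher and 18 lower in A2, where 17.1% and 15.8% were. The HIF target genes had 0 higher and 8 lower of 11 in A1, with a median of -0.59 on the log2 scale, and 0 higher and 7 lower in A2, with a median of -0.55, against medians near 0 over all tested genes (0.0082 and 0.013). The 8 in A1 became 5 without replicate 2 of stimulated Lkb1-/- MEFs or replicate 1 of stimulated A1. The 0 higher in A1 became 2 with the replicate block or without the filter on low counts, and 1 with unstranded counts, the newer quasi-likelihood method or replicates 2 and 3 only. *Slc2a1* was lower in A1 (-0.96, edgeR FDR = 2.5e-05) and A2 (-0.68, FDR = 0.0010), as was *Ankrd37* (-1.82, FDR = 3.7e-05, and -1.43, FDR = 4.3e-04). *Pdk1* was lower in A1 (-1.13, FDR = 0.016) but not without replicate 2 of stimulated Lkb1-/- MEFs (-1.03, FDR = 0.056) or replicate 1 of A1 (-1.02, FDR = 0.066), and *Adm* was lower in A2 (-1.62, FDR = 0.024) but not without replicate 2 of Lkb1-/- MEFs (-1.45, FDR = 0.082) or 1 of A2 (-1.15, FDR = 0.10), nor on replicates 2 and 3 only (-1.22, FDR = 0.059). In A1 the log2 fold change of *Adm* was in the other direction, at 1.13 (95% interval 0.11 to 2.14, FDR = 0.077), with 3.31 to 4.44 CPM against 1.46 to 2.12 CPM in Lkb1-/- MEFs. The HIF regulators had 0 higher and 3 lower of 8 in A1 and 2 higher and 2 lower in A2. With the replicate block, without the filter, with upper quartile scaling or on replicates 2 and 3 only, 1 was higher and 5 were lower in A1, and 1 was also higher with DESeq2 and without replicate 3 of stimulated Lkb1-/- MEFs or replicate 1 of stimulated A1. In A2, 5 were lower with the block, without the filter or without replicate 3 of stimulated A2, and 4 on replicates 2 and 3 only. Of these genes, *Hif1a* in A1 (-0.54, FDR = 0.033) was not called without replicate 2 (-0.45, FDR = 0.12) or 3 (-0.45, FDR = 0.10) of Lkb1-/- MEFs or replicate 1 (-0.43, FDR = 0.14) or 2 (-0.55, FDR = 0.073) of A1, and *Epas1* in A2 (0.86, FDR = 0.018) was not called without replicate 1 (0.63, FDR = 0.10) or 2 (0.82, FDR = 0.060) of Lkb1-/- MEFs or replicate 3 of A2 (0.62, FDR = 0.097).

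The VEGF-C processing genes had 2 higher and 0 lower of 4 in A1 and 1 each way in A2. With the block, without the filter or on replicates 2 and 3 only, 1 was lower in A1 and 2 were lower in A2, and 2 were lower in A2 also with upper quartile scaling and without replicate 1 of stimulated Lkb1-/- MEFs or replicate 3 of stimulated A2. *Adamts3* was higher in both (log2 fold changes 1.25 and 1.04, edgeR FDR = 0.0016 and 0.0070). *Ccbe1* was lower in A2 (-0.71, FDR = 0.0054), though not without replicate 2 of stimulated A2 (-0.56, FDR = 0.053). The angiogenic factors had 3 higher and 2 lower in A1 and 4 and 2 in A2. In A1 the lower count was 4 with the block or on replicates 2 and 3 only and 1 without replicate 3 of stimulated Lkb1-/- MEFs or replicate 1 or 3 of stimulated A1, and in A2 the counts were 2 higher without replicate 3 and 1 lower without replicate 1 of stimulated A2. *Hgf* was 10.9-fold lower in A1 (-3.44, FDR = 1.5e-07) and 24.6-fold lower in A2 (-4.62, FDR = 1.1e-08), and *Ptn* was 8.36-fold higher in A2 (3.06, FDR = 8.8e-07). The calls of *Ptn* in A1 (-0.99, FDR = 0.031) and of *Apln* in A1 (0.37, FDR = 0.019) and A2 (-0.39, FDR = 0.017) were each lost without single libraries, *Ptn* without replicate 2 or 3 of Lkb1-/- MEFs or 1 or 3 of A1 (FDR = 0.069 to 0.12), *Apln* in A1 without replicate 1 or 3 of Lkb1-/- MEFs or 2 of A1 (FDR = 0.060 to 0.12) or on replicates 2 and 3 only (0.28, FDR = 0.057) and *Apln* in A2 without replicate 2 of Lkb1-/- MEFs or 1 of A2 (FDR = 0.13 to 0.19).

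The angiogenesis inhibitors had 6 higher and 0 lower of 9 in A1, with a median of 1.00 on the log2 scale, and 3 each way in A2, with a median of 0.14. *Thbs2* (thrombospondin 2) was higher in both, at 1.68 ± 0.213 and 6.88 ± 2.03 CPM against 0.263 ± 0.0702 CPM in Lkb1-/- MEFs (edgeR FDR = 8.4e-06 and 6.2e-09), and *Timp3* (-1.23, FDR = 6.1e-06) and *Vash1* (-1.27, FDR = 0.0014) were lower in A2. Of the factors that bind *Vegfa* mRNA 1 of 5 was higher and 0 lower in A1, and 2 were higher and 1 lower in A2, and the block and DESeq2 called 1 lower in A1 and 2 lower in A2. *Zfp36l1* was higher in both (0.72, FDR = 4.7e-05, and 0.64, FDR = 2.1e-04) and *Zfp36* in A2 (0.28, FDR = 0.0096), a call that was lost without the filter on low counts (0.27, FDR = 0.12). The receptors had 1 higher and 1 lower of 5 in A1 (2 lower with the block, the newer method or replicates 2 and 3 only) and 1 higher and 2 lower in A2, and *Vegfd* was called in neither clone.

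As a description, the genes whose log2 CPM followed each member most closely over the 24 libraries were taken from the 9368 other tested genes with a mean log2 CPM above 3 (9369 for *Pgf*). The libraries share lines and treatment groups and are not independent points, so no test was made. For *Vegfa* they were *Camta1* (Pearson's r = 0.956), *Dcaf15* (0.923) and *Mapk8* (0.913), for *Vegfb* they were *Ncoa2* (0.974) and *Klf13* (0.968), for *Vegfc* they were *S1pr1* (0.948), *Birc2* (0.917) and *Traf2* (0.912), and for *Pgf* they were *Dixdc1* (0.976), *Sema5a* (0.974) and *Osr1* (0.974).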

How the data were processed

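RNA of 24 libraries of MEFs was sequenced in pairs. The authors trimmed reads with Trim Galore 0.6.0, used STAR 2.7.8a with mm10 (GRCm38) and a GENCODE annotation, and deposited its raw counts, whole read pairs per gene in 3 columns by strand. The labels name the SMARTER kit and the study's methods another kit with rRNA depletion, so the kit is not settled.

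Analyses used the column of the second strand, which held 95.5% to 96.0% of the stranded pairs, and 4 lines that name no gene (26.7% to 34.4% of pairs) were left out. Symbols (55230 of 55471 identifiers), positions and exon lengths came from GENCODE M21 on the same build, and promoters from RefSeq (GRCm38.p6). In R 4.3.3 with edgeR 4.0.16 (limma 3.58.1), genes were filtered by filterByExpr by group (minimum count 10, minimum total 15), scaled by TMM (factors 0.922 to 1.09) and fitted over all 24 libraries with 1 coefficient per group, after the study's methods. edgeR's legacy quasi-likelihood test gave 17 contrasts, called at an FDR under 0.05. The common biological coefficient of variation was 0.129. SE is the size of the log2 fold change divided by the root of the F statistic. Intervals are 95%, from the t distribution with the fit's degrees of freedom. The fit was tested on simulated data for the IL-1β response of Lkb1-/- MEFs only. The simulated libraries held no effect of the replicate number, so the test does not cover deviations that same-numbered libraries share. A permutation of 3 against 3 libraries cannot give a two-sided p under 0.1. No pair of replicates was as close as counting noise (chi-square per gene 37.7 to 106 between replicate 1 and the others and 7.41 to 18.6 between replicates 2 and 3).

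Genes named are the members, *Stk11*, *Crtc2*, every measured receptor and *Vegfd*, up to 3 genes per list and direction with the largest change among those called in untreated Lkb1-/- against wild-type MEFs, and 3 genes per member with the highest correlation, of which 1 is not reported here. The members and lists were chosen with earlier results of these data known. Alternatives were unstranded counts, DESeq2 size factors, upper quartile factors, no filter, DESeq2 1.42.0, the newer quasi-likelihood method, the replicate block, plain or within each genotype, leaving out each library, the longest transcript as length and, added after seeing the data, a fit of replicates 2 and 3 only.

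Same-numbered libraries deviated together from their group means: 84 correlations lay between 0.0355 and 0.589 (median 0.222), against a median of -0.115 for other numbers. Every pair was above 0.1 for the 4 responses, Lkb1-/- against wild-type MEFs with IL-1β, A2 against Lkb1-/- MEFs in both treatments, stimulated A1 against Lkb1-/- MEFs, and the difference of the A2 and Lkb1-/- responses, so the pairing was taken from the data there. For the other 2 differences of responses the block within each genotype served as the paired alternative. Main values and calls come from the fit without a block in every contrast.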

Additional observations from a re-analysis of the deposited data

Results flagged for a closer look

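The IL-1β response of *Vegfc* was tested between Lkb1-/- and wild-type MEFs, and the difference of 0.74 in log2 fold change (SE 0.148, FDR = 0.031 by edgeR) passed, with log2 fold changes of 0.72 in Lkb1-/- and -0.025 in wild-type MEFs. By replicate number the log2 ratios were 0.59, 0.71 and 0.86 in Lkb1-/- MEFs and -0.045, -0.044 and 0.011 in wild-type MEFs. Leaving out single libraries kept the value between 0.65 and 0.83 and took it past an FDR of 0.05 in 7 fits, up to an FDR of 0.12. On replicates 2 and 3 only the value was 0.80 (FDR = 0.0048).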

How the results depend on the processing

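Of 1052 values for the 4 members under other settings, 967 kept their direction and their side of the threshold, 26 were no longer called, 31 were newly called and 28 changed sign. All 68 values recomputed with DESeq2 size factors, and all 68 with the newer quasi-likelihood method, were among the 967. No member changed direction under another scaling, although upper quartile factors raised the median log2 fold change of all genes from 0.0325 to 0.135 for stimulated Lkb1-/- and from 0.0129 to 0.123 for stimulated A1 against wild-type MEFs.

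With upper quartile factors *Vegfa* in untreated A2 against wild-type MEFs (0.39), *Vegfb* in stimulated A1 against Lkb1-/- MEFs (-0.25) and *Vegfc* in untreated Lkb1-/- against wild-type MEFs (0.31) were called, and the *Vegfa* response of A1 (0.60) was not. Without the filter, calls were gained by *Vegfa* in untreated A2 against wild-type MEFs (0.27), in the response of A2 (0.43) and in the difference of the Lkb1-/- and wild-type responses (0.64), by *Vegfb* in stimulated A1 against Lkb1-/- MEFs (-0.26) and by the *Vegfc* response of A1 (0.40). *Pgf* in stimulated A2 against Lkb1-/- MEFs lost its call (-0.71), and the *Vegfb* response of A1 changed sign (0.0029). DESeq2 called *Vegfb* in stimulated A1 against Lkb1-/- MEFs (-0.27) and the *Vegfc* response of A1 (0.39). Unstranded counts turned *Vegfb* in stimulated A2 against Lkb1-/- MEFs (0.018) and *Nrp2* in untreated Lkb1-/- against wild-type MEFs (-0.034). On replicates 2 and 3 only, a setting chosen after the data were seen, *Vegfa* lost its calls in stimulated A1 against wild-type MEFs (0.40) and in the responses of Lkb1-/- MEFs (0.62) and A1 (0.56), *Vegfb* in stimulated A1 against Lkb1-/- MEFs (-0.26) and the *Vegfc* response of A1 (0.40) were called, and the *Vegfa* response of wild-type MEFs (-0.032) and *Vegfb* in stimulated A2 against Lkb1-/- MEFs (0.031) changed sign. The genes called over the whole table then numbered 921 in wild-type MEFs, 1534 in Lkb1-/- MEFs, 899 in A1 and 2556 in A2 for the responses, and 147, 10 and 6 for the differences. Among 48 counts per list, 9 moved by over 1.5 times, all of them in the stimulated clones. The cause of these changes was not tested.

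The replicate block called, with the plain block first and the block within each genotype second, the *Vegfa* response of A2 (0.41 and 0.41), the *Vegfa* difference of Lkb1-/- and wild-type responses (0.60 and 0.59), the *Vegfb* response of Lkb1-/- MEFs (-0.22 and -0.22), the *Vegfc* response of A1 (0.38 and 0.38) and the *Pgf* response of A2 (-0.62 and -0.62). The plain block also called *Vegfb* in untreated A2 (-0.20) and stimulated A1 (-0.26) against Lkb1-/- MEFs and, where the numbers do not pair the libraries, *Vegfa* in untreated A2 against wild-type MEFs (0.28). The block within each genotype also called the *Vegfc* difference of the A1 and Lkb1-/- responses (-0.34). The blocks changed no other call of a member. They raised the genes called over the whole table, within each genotype to 2823 in wild-type MEFs, 3966 in Lkb1-/- MEFs, 2860 in A1 and 4557 in A2, and to 1003, 267 and 183 for the differences (1629, 2601, 1684, 3133, 311, 36 and 18 with the plain block, against 396, 831, 348, 995, 43, 5 and 0 without).

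When each library was left out, values ranged for *Vegfa* from 0.38 to 0.57 in stimulated A1 against wild-type MEFs, from 0.53 to 0.77 in the response of Lkb1-/- MEFs, from 0.51 to 0.69 in A1, from 0.32 to 0.58 in A2 and from -0.030 to 0.081 in wild-type MEFs, from -0.15 to -0.022 in untreated A1 against wild-type MEFs, and from -0.19 to 0.062 and -0.35 to -0.051 in the differences of A1 and of A2 from Lkb1-/-. For *Vegfb* they ranged from -0.22 to -0.095 in untreated A2, from -0.32 to -0.20 in stimulated A1 and from -0.073 to 0.12 in stimulated A2 against Lkb1-/- MEFs, from -0.20 to -0.014 in the response of wild-type MEFs, from -0.072 to 0.042 in that of A1 and from -0.10 to 0.081 in that of A2, and from -0.20 to -0.010, 0.13 to 0.25 and 0.11 to 0.29 in the differences of Lkb1-/- from wild type and of A1 and A2 from Lkb1-/-. For *Vegfc* they ranged from 0.11 to 0.30 in untreated Lkb1-/- against wild-type MEFs, from 0.33 to 0.47 in stimulated A2 against Lkb1-/- MEFs, from -0.11 to 0.068 in the response of wild-type MEFs, and from 0.65 to 0.83 and -0.13 to 0.080 in the differences of Lkb1-/- and wild type and of A2 and Lkb1-/-. For *Pgf* they ranged from -0.85 to -0.57 in stimulated A2, from 0.14 to 0.41 in stimulated A1, from 0.22 to 0.47 in untreated A1 and from -0.33 to -0.11 in untreated A2 against Lkb1-/- MEFs, from -0.40 to 0.062 in the response of wild-type MEFs, from -0.25 to -0.055 in that of Lkb1-/- MEFs, from -0.37 to -0.10 in that of A1, from -0.74 to -0.51 in that of A2, and from -0.24 to 0.23 and -0.19 to 0.075 in the differences of Lkb1-/- and wild type and of A1 and Lkb1-/-. For *Nrp2* the range was -0.048 to 0.076. Of the 48 counts per list, 21 moved by over 1.5 times under at least 1 setting (65 of 672 values), 12 of them when 1 library was left out. The plain block, in the paired comparisons of the stimulated clones with Lkb1-/- MEFs, moved the lower HIF regulators from 3 to 5 in A1 and from 2 to 5 in A2, the higher HIF regulators and targets in A1 from 0 to 1 and 2, the lower angiogenic factors in A1 from 2 to 4, the lower VEGF-C processing genes and *Vegfa* mRNA binding factors from 0 to 1 in A1 and 1 to 2 in A2, and the lower receptors in A1 from 1 to 2. In untreated Lkb1-/- against wild-type MEFs, where the numbers do not pair the libraries, it moved the higher angiogenesis inhibitors from 5 to 8, the lower HIF targets from 1 to 2 and *Vegfd* to a call. The lowest *Vegfa* count was 1419 and the lowest *Pgf* count 11, so that depth limits *Pgf* most. Among listed genes, calls were also lost by *Hif1a* in A1 (-0.51) and *Adm* in Lkb1-/- MEFs (1.53) with unstranded counts and by *Ptn* in A1 (-0.99) with the newer method, and *Vegfd* was called without the filter (-0.28).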
